A study of Mus musculus with 12 samples.

Results

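The 55 transcripts described here stayed within 3-fold of the wild-type level in growing Zar1/2-null oocytes. All were more than 3-fold lower both in fully grown germinal vesicle (GV) oocytes and in ovulated oocytes labelled metaphase II (MII). They were chosen from the measured values of all 3 stages: the mean of the 2 libraries of each group was set to at least 1 FPKM (fragments scaled to transcript length and to library size), and the Zar1/2-null mean had to lie below 1/3 of the WT mean at GV and at MII but not in growing oocytes. Genes whose symbol begins with Mir, Snor or Rnu were left out, as were Rnf2, Nceh1, Manba and Zar1l. Of 23230 genes in the table, 11502 reached 1 FPKM in at least 1 library, and 55 of these met the rule. Since the rule used every comparison of the genotypes, the ratios given below are a description of the choice and carry no test.

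RNA was measured in WT and Zar1/2-null mouse oocytes of a C57BL6/ICR hybrid background at 3 stages, with 2 libraries in each of the 6 groups and 10 oocytes in each library. The null females lacked both Zar1 and Zar2 (listed under the symbol Zar1l), disrupted with CRISPR/Cas9, Zar1 by a short deletion that brings a stop codon and Zar2 by a deletion in exon 1 that shifts the reading frame. For growing oocytes the labels give females of 13.5 days (the study's methods give a slightly younger age), and for GV oocytes females of 21 days at 44 h after PMSG, a gonadotrophin that starts follicle growth. MII oocytes were collected 16 h after hCG, which triggers ovulation. The study reports that ovulated null oocytes had stopped in meiosis I, at metaphase or telophase, so for them MII names the time of collection. Genotype and meiotic stage cannot be told apart in the MII libraries, and the part of the arrest in these values was not tested. The study found that decay of selected mRNAs went on in WT oocytes held in meiosis I with nocodazole. The labels name no animal behind a library, so the spread between 2 libraries may be technical.

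A growing oocyte transcribes and stores mRNA, and transcription stops late in growth. The study detected transcription in oocytes whose chromatin did not yet surround the nucleolus, and none in fully grown oocytes where it did. The labels do not say which type the GV libraries held. A GV level thus reflects synthesis as well as storage and decay, and these cannot be told apart here. During meiotic maturation from GV to MII a large part of the stored mRNA is degraded, while other transcripts receive longer poly(A) tails and are translated. ZAR1 and ZAR2 are oocyte proteins with zinc fingers that bind RNA, and frog homologues have been described to bind a translational control sequence in the 3′ UTR (untranslated region) of stored mRNAs. The libraries were made with oligo-dT primers, which need a poly(A) tail, so that fewer molecules and a shorter tail cannot be told apart here.

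The sites below show the kind of sequence that these transcripts carry. They are matches to the translational control sequence (TTTGTCT or ATTGTCT or TTTATCT or ATTATCT) in the annotated 3′ UTRs of 6 of the more abundant transcripts with a match, in each case the match nearest to the end of the 3′ UTR. They are written 5′ to 3′ on the transcript strand with mm9 coordinates, with the matched letters in capitals. Nearest does not mean near: these matches end from 10 bases (Amd1) to 2232 bases (Tra2b) before the end of the 3′ UTR.
Cnbp (chr6:87793617-87793643, minus strand): acggccttggATTGTCTgacctcagta
Kbtbd7 (chr14:79830146-79830172, plus strand): ctctttcagaATTATCTtccgcagtct
Coq10b (chr1:55129384-55129410, plus strand): aagtagttaaTTTGTCTccagcaccac
Amd1 (chr10:40007265-40007291, minus strand): agtttgcttaATTGTCTagtaacattg
Tra2b (chr16:22246844-22246870, minus strand): aatattttctATTGTCTcctgtttaaa
Ect2 (chr3:26996404-26996430, minus strand): tgaatctgccATTATCTtctactgcaa
The next lines show, for 3 of the same transcripts and for Ythdf3 and Memo1, which have no match to the translational control sequence, a match to the cytoplasmic polyadenylation element (TTTTAT or TTTTAAT), which recruits the factors that lengthen poly(A) tails during maturation.
Cnbp (chr6:87792980-87793005, minus strand): gaacgcactgTTTTATtaatttgtag
Kbtbd7 (chr14:79830778-79830803, plus strand): gatgttattaTTTTATagataaatga
Ect2 (chr3:26996336-26996361, minus strand): gccaagaataTTTTATttcttacacg
Ythdf3 (chr3:16116437-16116463, plus strand): ggtattttatTTTTAATggtattatag
Memo1 (chr17:74600162-74600188, minus strand): ggtggaagctTTTTAATaaaagaaact
The last lines show Pumilio elements (TGTANATA), bound by Pumilio proteins that repress and destabilize mRNA, in the 3′ UTRs of Cnbp and Ect2.
Cnbp (chr6:87793106-87793133, minus strand): ttttcatcaaTGTATATAgaacaaaata
Ect2 (chr3:26996155-26996182, minus strand): gcaagaacttTGTAAATAaatagcttta

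The targeted genes were checked first. Zar1l stood at 639 and 644 FPKM in WT growing libraries and at 17.5 and 13.2 FPKM in null ones, and at 533 and 504 against 20.9 and 19.6 FPKM at GV. Zar1 mRNA was still listed at 136 and 203 FPKM in null GV oocytes against 439 and 423 FPKM in WT, and at 190 and 194 against 83.6 and 72.4 FPKM at MII, which does not check the label because the deletion in Zar1 is short. All 15 oocyte markers had a group mean of at least 1 FPKM in 5 of the 6 groups and 14 of 15 did in WT MII oocytes. The markers of theca and stroma reached 1 FPKM as a group mean in no group (0 of 7). The 17 granulosa and cumulus markers summed to 30.0 to 33.7 FPKM in WT and 14.7 to 23.0 FPKM in null growing libraries, 17.6 to 20.3 and 14.2 to 16.4 FPKM at GV, and 5.24 to 5.52 and 7.33 to 8.59 FPKM at MII, mostly from Cyp19a1 and Nr5a2. Of the 7 immune markers, Laptm5 alone reached a group mean of 1 FPKM, in WT growing and WT GV oocytes. Their sum was 0.806 to 1.60 FPKM in WT and 0.207 to 0.431 FPKM in null growing libraries, 1.399 to 1.67 and 0.290 to 0.637 FPKM at GV, and 0.537 to 0.555 and 0.191 to 0.362 FPKM at MII. The 7 epithelial and oviduct markers summed to 32.2 to 33.8 FPKM in WT and 91.3 to 108 FPKM in null growing libraries, with Krt8 at 72.8 and 88.0 FPKM in the latter, and to 14.6 to 30.0 FPKM in the GV and MII libraries. Cdh1 and Krt8 made up most of these sums, with Cdh1 at 27.5 and 29.4 FPKM in WT and 17.7 and 19.3 FPKM in null growing libraries. In both null growing libraries Krt18, Krt19 and Foxj1 were at 0, and Epcam and Ovgp1 were under 1 FPKM. The part of all these cell type markers in the values below was not tested. The steps between the lowest values of the table gave relative sequencing depths between 0.914 and 1.24 of the first WT growing library.

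In the 55 transcripts together, the median null to WT ratio was 0.542 in growing oocytes, 0.2497 in GV oocytes and 0.237 in MII oocytes. Among the 3570 other genes that could have passed the rule (WT mean above 3 FPKM at GV and at MII), the medians were 0.821, 0.719 and 1.02. The choice fixed that the growing median of the 55 lay above their GV and MII medians. It did not fix the order of their GV and MII medians. Nor did it fix that their growing median lay below that of the other genes, and this difference was not tested. The growing ratio lay below 1 in 54 of the 55 transcripts, as it did in 60.7% of all genes kept and in 79.1% of the 3570. It was below 0.5 in 22, between 0.5 and 0.8 in 26, and at least 0.8 in 7, and 9.37% of all genes kept lay below 0.5. These 7 were B3gnt2 (1.05), Vamp3 (0.981), Pcp4l1 (0.939), Polr2h (0.924), Cnbp (0.848), Ect2 (0.828) and Zfp330 (0.828). A name that says low from GV to MII only thus holds for the 3-fold limit and not for the values themselves.

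**Figure D1:**
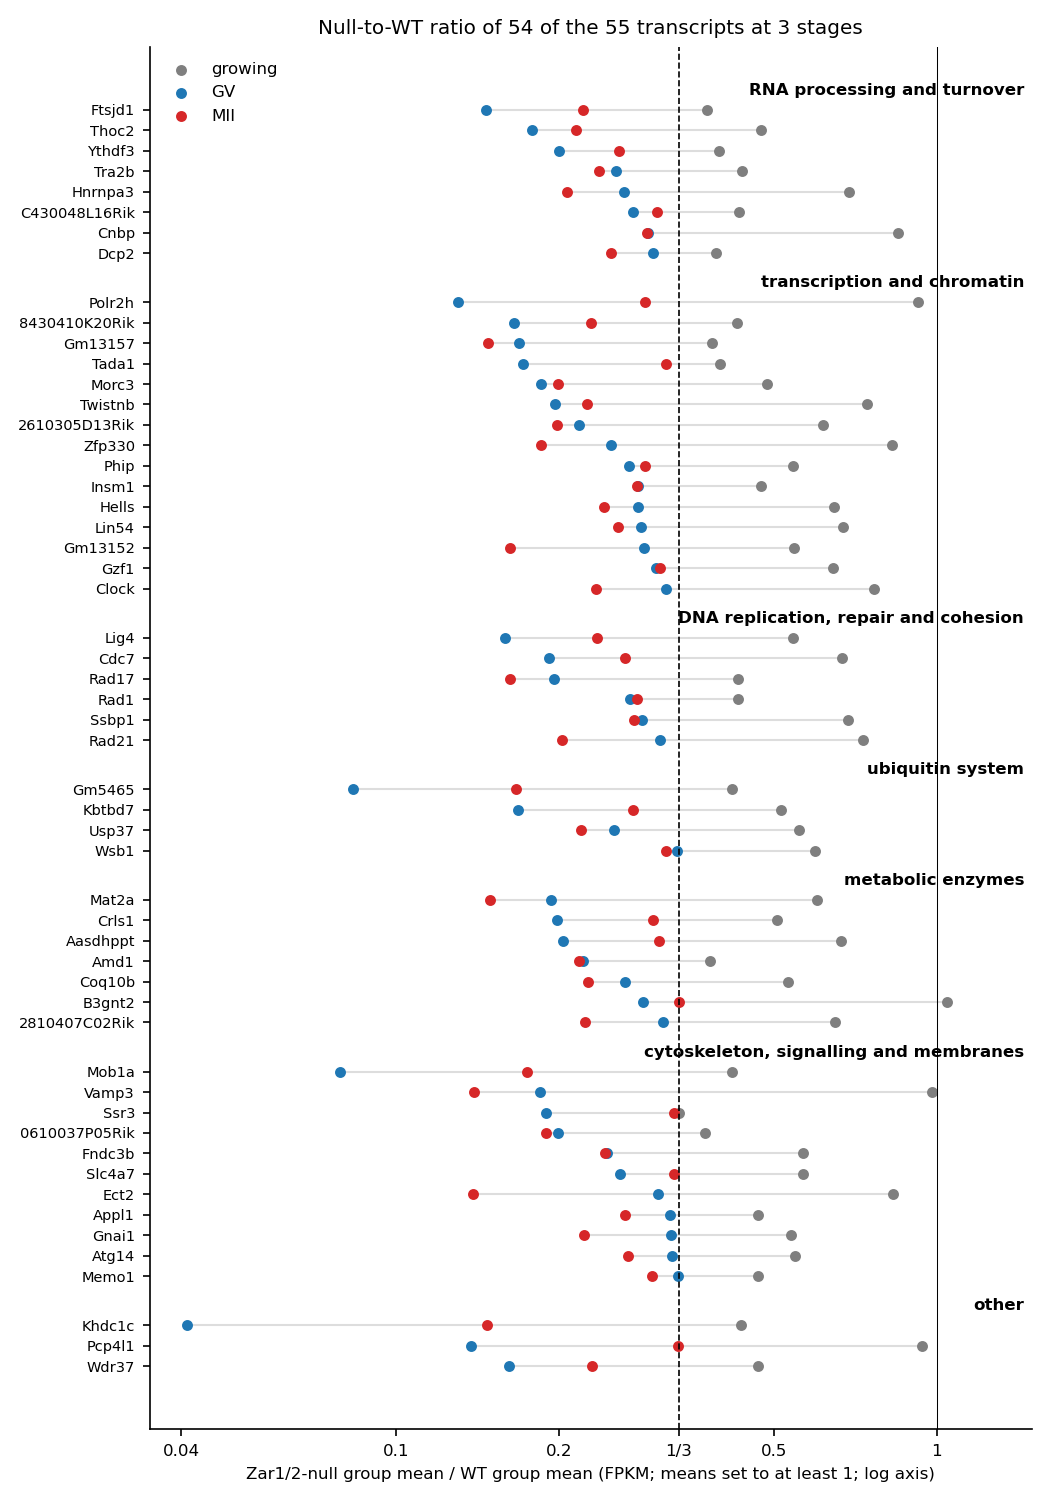
Ratio of the Zar1/2-null to the WT group mean (log axis, means of 2 libraries set to at least 1 FPKM) for 54 of the 55 transcripts in growing (grey), GV (blue) and MII (red) oocytes, ordered by role. The dashed line marks 1/3; the growing values spread from 0.334 (Ssr3) to 1.05 (B3gnt2), and the GV values reach down to 0.0410 (Khdc1c).

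By the same 3-fold limit and with the same symbols left out, 23 genes were low at all 3 stages, 239 at GV alone, 52 at MII alone, 235 in growing oocytes alone, 118 in growing and GV oocytes, and 1 in growing and MII oocytes. Among all 11502 genes, with no symbol left out, the shares with a null mean under 1/3 of WT were 3.54% in growing, 4.2% in GV and 1.32% in MII oocytes, and 0.522% met all conditions before the symbols were left out. The genes nearest to the limit show how narrow it was. Memo1 (0.333) and Wsb1 (0.331) were just inside at GV, and Gmnn (0.334) and Gm6793 (0.338) just outside. At MII, B3gnt2 (0.333) and Pcp4l1 (0.333) were just inside, and Sarnp (0.338) and Jam3 (0.339) just outside. In growing oocytes Ssr3 (0.334) was kept, whereas Acadm (0.333) and Fam84b (0.326) counted as low at all 3 stages.

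In every one of the 55, the higher null library was below the lower WT library at GV and at MII, and in 52 this held in growing oocytes too, the exceptions being B3gnt2, Pcp4l1 and Vamp3. The same held for 63.6% of all 11502 genes at GV, 27.8% at MII and 47.4% in growing oocytes. limma called all 55 lower at GV and at MII and 43 lower in growing oocytes, against 40.6%, 10.3% and 24.4% of all genes, and nothing is read from these counts because the rule used the same contrasts. When the rule was read on the libraries of replicate number 1 alone it took 63 genes, of which 41 lay below 1/3 at GV and 48 at MII in the libraries of number 2, and all 63 were lower in null oocytes at both stages. Read on number 2 alone it took 42 genes, of which 33 lay below 1/3 at GV and 39 at MII in number 1. All conditions were met in both numbers by 29 genes. On the means of both libraries, 8791 of all 11502 genes kept lay below 1 at GV and 2909 at MII. Of the 3570 other genes that could pass, 3288 and 1735 did. Below 1/3 lay 4.2% of all genes at GV and 1.32% at MII. The shares of all genes on 1 replicate number were not computed. The exact list thus moved with the libraries it was read on.

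Which genes passed also depended on the scaling to ERCC, synthetic RNA added to each sample in a known amount. The authors multiplied each library by a factor that was 1 in WT growing oocytes, 0.862 and 0.779 in null growing oocytes, 0.836 and 0.697 in WT GV, 0.533 and 0.583 in null GV, 0.225 and 0.228 in WT MII and 0.283 and 0.252 in null MII oocytes. With the factors divided out, 81 genes met the rule, of which 26 were among the 55, and the median ratios of the 55 became 0.662, 0.338 and 0.189. With each library set to the same median, 45 genes met it, 24 of them among the 55. A list of 16 was kept under both of these scalings, under geometric means, under a 3-fold difference between every pair of libraries and on each replicate number alone: Cdc7, Crls1, Ftsjd1, Khdc1c, Lig4, Mat2a, Mob1a, Morc3, Msantd4 (listed as 8430410K20Rik), Pcp4l1, Rad17, Thoc2, Twistnb, Vamp3, Wdr37 and Ythdf3.

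The ratios between stages use the same values as the rule, which fixes that the 55 fell further from growing to GV oocytes in the null than in the WT genotype, and they are given as a description. In WT oocytes the median ratio of the GV to the growing mean was 0.764 over the 55 transcripts and 0.807 over the other 3570 genes. In null oocytes it was 0.346 over the 55 and 0.706 over the others. The null GV mean was below 0.5 of the null growing mean in 47 of the 55 (23.7% of all genes kept), and the WT GV mean was below 0.5 of the WT growing mean in 1 (6.65%), 8430410K20Rik (ratio 0.447). From GV to MII, the median MII to GV ratio of the 55 was 0.432 in WT and 0.468 in null oocytes, against 0.374 and 0.581 for the other genes. Library by library, both WT GV values lay below both growing values in 34 of the 55 (59.5% of all genes), and both null GV values in 53 (68.9%), the exceptions being Gm13157 and Insm1. Both MII values lay below both GV values in all 55 in WT (97.1% of all genes) and in 48 in null oocytes (84.6%). The limma interaction put the null effect lower at GV than in growing oocytes for 37 of the 55 (11.3% of all genes), and between GV and MII it passed for 9 upwards (33.9%) and 1 downwards (0.643%), counts from which nothing is read since the choice used the same values. These stage ratios rest on the ERCC scaling: with the factors divided out the WT GV to growing median was 1.00, the null GV to growing median 0.508, the WT MII to GV median 1.47 and the null MII to GV median 0.928. The fall of the WT medians from stage to stage is thus on the ERCC scale and was not seen on the unscaled one.

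**Figure D2:**
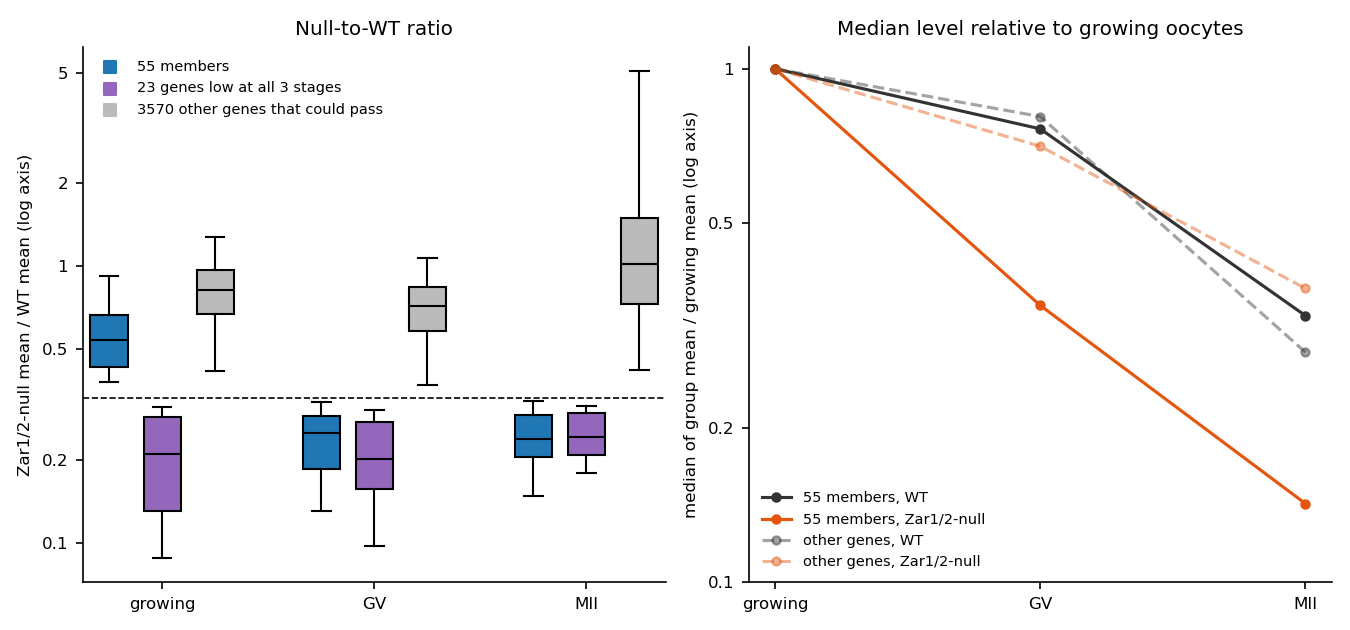
Left, null to WT ratio (log axis) of the 55 transcripts, of the 23 genes low at every stage by the 3-fold limit, and of the 3570 other genes that could pass, which include the 23; boxes show quartiles and median, whiskers the 5th and 95th percentiles, and the dashed line 1/3. Right, median over genes of the group mean relative to the growing mean of the same genotype (log axis): the 55 fall to 0.346 at GV and 0.142 at MII in null oocytes and to 0.764 and 0.331 in WT.

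WT GV levels spanned 6.24 to 223 FPKM with a median of 16.5 FPKM, and the null GV median was 3.20 FPKM. At MII the median was 6.10 FPKM in WT and 1.30 FPKM in null oocytes. The null mean was at or under the floor of 1 FPKM in 17 transcripts at MII and in 2 at GV, so that these ratios are upper limits set by the floor. No library listed any of the 55 at 0. From the steps in the low values and the annotated transcript lengths, the library with the fewest fragments held about 129 for the median transcript, about 19.0 for Khdc1c and about 6.16 for Pcp4l1, and these 2 were the only ones under 20. Such numbers are estimates, and they cover counting error only.

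Genes for RNA processing and turnover made up 8 of the 55, with median ratios of 0.434 in growing, 0.259 in GV and 0.243 in MII oocytes. Cnbp (chr6:87792609-87801100, minus strand) encodes a zinc finger protein that binds single-stranded nucleic acids and promotes translation, and it was the most abundant of all 55. It was listed at 379 and 389 FPKM in WT and 341 and 309.5 in null growing oocytes, 262 and 185 against 54.9 and 75.8 FPKM at GV, and 111 and 96.04 against 30.5 and 29.6 FPKM at MII. In growing oocytes both null libraries lay a little below both WT ones (ratio 0.848). The gap between genotypes was wider at GV, where the ratio was 0.292, and it was 0.2905 at MII. Cnbp no longer met the rule with the ERCC factors divided out, with median scaling or on replicate number 2 alone. Nor did it meet a 3-fold difference between every pair of libraries.

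Ythdf3 (chr3:16083183-16117035, plus strand) encodes a cytoplasmic reader of N6-methyladenosine in mRNA. Its libraries stood at 59.6 and 52.9 FPKM in WT and 21.8 and 22.8 in null growing oocytes, 54.3 and 44.4 against 10.9 and 8.87 FPKM at GV, and 21.1 and 19.6 against 4.47 and 6.03 FPKM at MII. The null libraries were low at every stage, with ratios of 0.396 in growing, 0.2004 in GV and 0.258 in MII oocytes. Tra2b (chr16:22244622-22266078, minus strand) encodes a splicing activator related to the SR proteins, and gave 67.8 and 66.01 FPKM in WT and 29.98 and 28.4 in null growing oocytes, 48.97 and 42.7 against 10.97 and 12.4 FPKM at GV, and 19.1 and 20.5 against 4.18 and 5.199 FPKM at MII. Again no null library reached a WT one at any stage, and the GV ratio was 0.255. Ftsjd1, now named Cmtr2 (chr8:112741860-112748389, plus strand), encodes a methyltransferase of the mRNA cap. It was measured at 15.99 and 16.2 FPKM in WT and 5.64 and 6.45 in null growing oocytes, 14.1 and 11.5 against 1.81 and 1.95 FPKM at GV, and 5.91 and 6.87 against 1.36 and 1.47 FPKM at MII. It had the lowest GV ratio of the group (0.147). The other 4 were Thoc2, the largest subunit of the THO mRNA export complex (GV ratio 0.178), Dcp2, the decapping enzyme (0.298), Hnrnpa3 (0.264), and C430048L16Rik, now Rbm12b2 (0.275). Hnrnpa3 and Cnbp have many near-identical copies in the genome, which unique mapping may handle unevenly. Exons of Hnrnpa3 also overlap AL772404.1 on the same strand. Exons of C430048L16Rik overlap Tmem67 on the other strand, and since no strand is stated for the counting, reads of such pairs cannot be told apart.

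**Figure D3:**
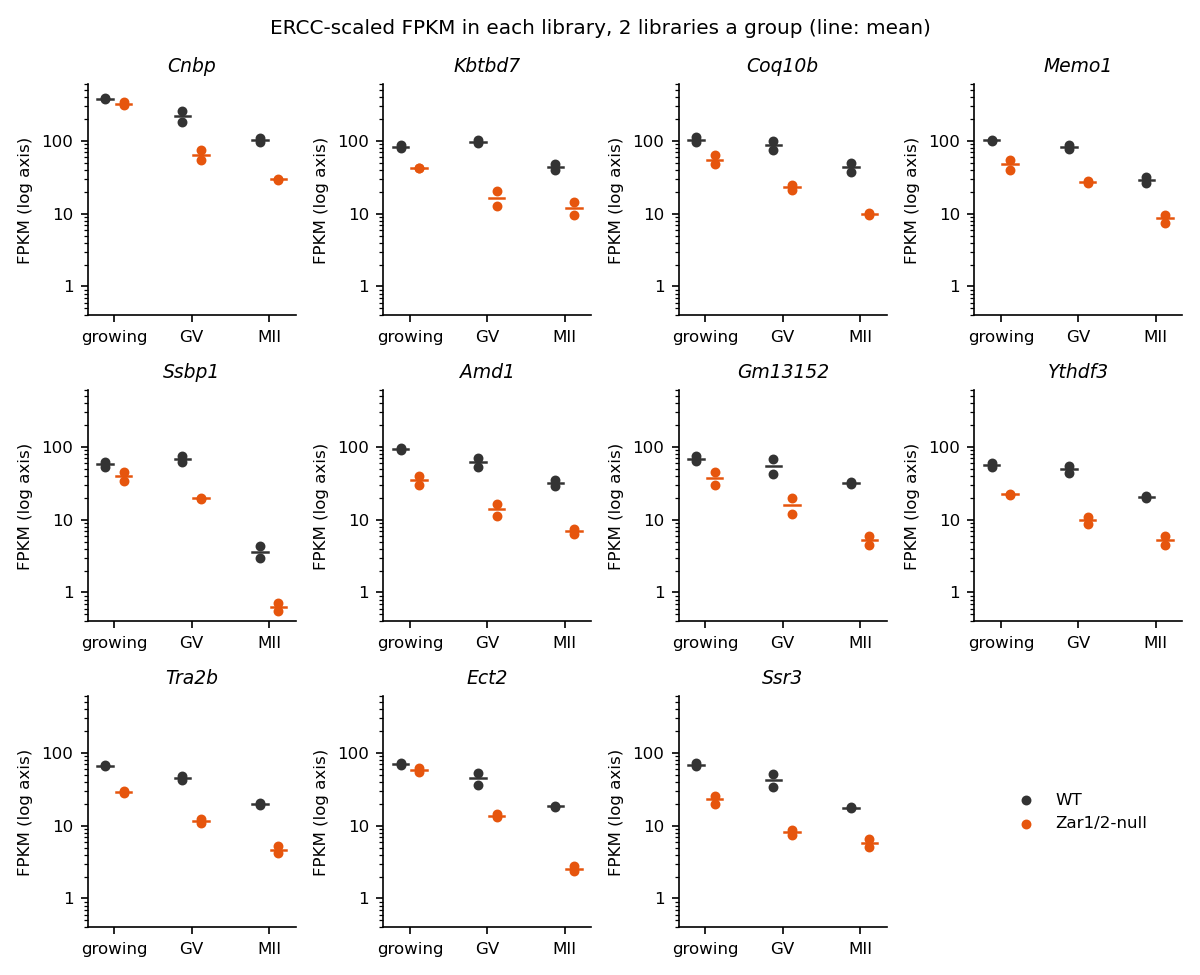
ERCC-scaled FPKM (log axis) of the 11 transcripts with a WT GV mean of at least 40 FPKM in each library, with WT in dark grey and Zar1/2-null in orange and a line at the mean of 2 libraries. In every panel the null points lie below the WT points at GV and at MII, and for Cnbp and Ect2 the growing means lie close together.

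Transcription and chromatin was the largest group with 15 transcripts, and its median ratios were 0.615, 0.2497 and 0.234. Polr2h (chr16:20717738-20722340, plus strand) encodes a subunit shared by RNA polymerases I, II and III. It stood at 25.3 and 24.5 FPKM in WT and 23.7 and 22.4 in null growing oocytes, 28.1 and 21.1 against 2.86 and 3.54 FPKM at GV, and 6.72 and 4.87 against 2.18 and 1.17 FPKM at MII. In growing oocytes the ratio was 0.924, and at GV the null mean was 0.1303 of WT, the lowest of the group. Its exons overlap those of Clcn2 on the other strand. Twistnb, a subunit of RNA polymerase I, had ratios of 0.743 in growing, 0.197 in GV and 0.226 in MII oocytes.

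A cluster of 317 kb on chromosome 4 held 3 of the zinc finger genes, namely Gm13152 (now Zfp982), 2610305D13Rik (now Zfp979) and Gm13157 (now Zfp984). Gm13152 (chr4:146866526-146887595, plus strand) was the most abundant member of the whole group, at 74.4 and 64.6 FPKM in WT and 45.4 and 30.1 in null growing oocytes, 68.2 and 42.8 against 12.1 and 19.8 FPKM at GV, and 33.3 and 31.2 against 4.51 and 5.98 FPKM at MII. The null libraries were lower at all stages, and the MII ratio (0.163) was below the GV ratio (0.287). Gm13157 (chr4:147128083-147183895, minus strand) was among the 13 transcripts with a higher WT mean in GV than in growing oocytes, at 6.45 and 5.37 FPKM in WT and 2.94 and 1.598 in null growing oocytes, 15.97 and 10.5 against 2.46 and 2.01 FPKM at GV, and 7.34 and 6.17 against 1.02 and 0.89 FPKM at MII. In null oocytes its mean stayed at 0.986 of the growing level. 2610305D13Rik (chr4:146986046-147052416, minus strand) had ratios of 0.615 in growing, 0.218 in GV and 0.199 in MII oocytes. Of the 5 genes of this stretch that reached 1 FPKM, the other two were Gm13154, with ratios of 0.188, 0.1002 and 0.335, and Zfp534, with 0.707, 0.401 and 0.881. Exons of 2610305D13Rik and Zfp534 overlap on the same strand. Genes of this family share long stretches of sequence, so reads may be lost or shared among them, and their values are uncertain to that extent.

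The remaining genes of the group comprised Hells, a chromatin remodelling ATPase needed for DNA methylation (GV ratio 0.2801), and Tada1, a subunit of the SAGA coactivator (0.172), which overlaps Pogk. Lin54, the DNA-binding subunit of the MuvB complex, stood at 0.284 and Clock, the circadian transcription factor, at 0.315. Morc3, a nuclear ATPase, was at 0.185, and Phip, a bromodomain protein, at 0.2696. The zinc finger proteins Zfp330, Gzf1 and Insm1 had GV ratios of 0.2497, 0.303 and 0.2797, and 8430410K20Rik (now Msantd4) one of 0.166. Insm1 was the only transcript of the 55 with a higher mean in null GV than in null growing oocytes (ratio 1.46), and its WT mean rose by more (ratio 2.47).

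DNA replication, repair and cohesion accounted for 6 transcripts, with median ratios of 0.606, 0.233 and 0.2501. Ssbp1 (chr6:40421351-40431822, plus strand) encodes the single-stranded DNA-binding protein of mitochondria. Its values were 63.04 and 53.3 FPKM in WT and 45.8 and 33.8 in null growing oocytes, 75.3 and 62.4 against 19.8 and 19.4 FPKM at GV, and 4.298 and 2.96 against 0.548 and 0.718 FPKM at MII. It fell most steeply of all 55 from GV to MII, in both genotypes, and its null MII values were under the floor. Rad21, the cohesin subunit that closes the ring, had ratios of 0.731 in growing, 0.308 in GV and 0.203 in MII oocytes. Rad1, a subunit of the 9-1-1 checkpoint clamp, and Rad17, which loads that clamp, had GV ratios of 0.271 and 0.196 and MII ratios of 0.279 and 0.162. Lig4, the ligase of non-homologous end joining, was at 0.159 at GV and 0.235 at MII. Cdc7, the kinase that fires replication origins, was at 0.192 and 0.265.

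The ubiquitin system was represented by 5 transcripts (median ratios 0.556, 0.253 and 0.274). Kbtbd7 (chr14:79826200-79830846, plus strand) and Gm5465, now Kbtbd6 (chr14:79851642-79854623, plus strand), encode paired substrate adaptors of the cullin-3 ligase and lie 20796 bases apart on the same strand. Kbtbd7 was listed at 87.3 and 79.5 FPKM in WT and 42.8 and 43.1 in null growing oocytes, 104 and 93.1 against 20.4 and 12.6 FPKM at GV, and 48.6 and 39.8 against 9.71 and 14.5 FPKM at MII. WT libraries were a little higher at GV than in growth while the null libraries were far lower. Gm5465 gave 16.1 and 14.05 FPKM in WT and 5.21 and 7.38 in null growing oocytes, 19.8 and 19.1 against 2.202 and 1.03 FPKM at GV, and 5.74 and 6.46 against 0.659 and 1.37 FPKM at MII, and its GV ratio (0.0831) was the third lowest of the 55 with the floor. The paralogs resemble each other, so reads may be misplaced between them. Usp37, a deubiquitinating enzyme, had a GV ratio of 0.253 and overlaps Vil1. Wsb1, a SOCS-box adaptor, had a GV ratio of 0.331.

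Metabolic enzymes numbered 7, with median ratios of 0.599, 0.221 and 0.226. They include both enzymes on the way from methionine to decarboxylated S-adenosylmethionine. Mat2a (chr6:72382793-72389552, minus strand) makes S-adenosylmethionine, the methyl donor of the cell, and its libraries stood at 46.01 and 37.8 FPKM in WT and 25.6 and 24.6 in null growing oocytes, 25.3 and 19.7 against 3.23 and 5.48 FPKM at GV, and 8.35 and 8.44 against 1.31 and 1.197 FPKM at MII. Amd1 (chr10:40007265-40021992, minus strand) removes its carboxyl group for polyamine synthesis, and was listed at 95.8 and 90.6 FPKM in WT and 40.6 and 30.3 in null growing oocytes, 71.8 and 53.9 against 11.3 and 16.5 FPKM at GV, and 35.4 and 28.8 against 7.54 and 6.42 FPKM at MII. The null libraries of both were below WT throughout, with MII ratios of 0.149 for Mat2a and 0.218 for Amd1, which has a near-identical copy, Amd2. Coq10b (chr1:55109614-55129545, plus strand) encodes a coenzyme Q-binding protein of mitochondria. It was measured at 113 and 96.9 FPKM in WT and 63.5 and 47.7 in null growing oocytes, 99.98 and 74.5 against 21.3 and 24.8 FPKM at GV, and 50.1 and 37.9 against 10.2 and 9.75 FPKM at MII. Its ratios were 0.531 in growing, 0.265 in GV and 0.226 in MII oocytes. Crls1, cardiolipin synthase, had a GV ratio of 0.198, Aasdhppt, a phosphopantetheinyl transferase, 0.204, and 2810407C02Rik, now Selenot, 0.311. B3gnt2, a glycosyltransferase, was the single transcript above WT in growing null oocytes (1.05) and was at 0.286 at GV. Its exons overlap those of Commd1 on the same strand. Exons of Crls1 overlap Gm14104 on the other strand.

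Proteins of the cytoskeleton, signalling and membranes were encoded by 11 transcripts (median ratios 0.537, 0.259 and 0.243). Ect2 (chr3:26996144-27052800, minus strand) encodes the RhoA exchange factor that starts cytokinesis. Its libraries stood at 72.1 and 69.2 FPKM in WT and 62.4 and 54.6 in null growing oocytes, 53.95 and 36.9 against 13.1 and 14.6 FPKM at GV, and 18.9 and 18.3 against 2.76 and 2.404 FPKM at MII. The growing libraries differed by a ratio of 0.828, and the MII ratio of 0.139 was, with that of Vamp3, the lowest of the 55 with the floor. Without the floor Dcp2 (0.118) and Mob1a (0.125) were among those lower still. Vamp3 (chr4:150421409-150432072, minus strand) encodes a SNARE of recycling endosomes. It gave 22.2 and 21.2 FPKM in WT and 22.5 and 20.1 in null growing oocytes, 21.6 and 16.1 against 2.91 and 4.05 FPKM at GV, and 7.18 and 7.18 against 0.985 and 0.896 FPKM at MII. Growing libraries of both genotypes overlapped, and the null libraries were far below WT from GV on.

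Memo1 (chr17:74600046-74694223, minus strand), a mediator of cell motility, was listed at 101 and 103 FPKM in WT and 55.4 and 39.9 in null growing oocytes, 88.4 and 77.03 against 26.5 and 28.6 FPKM at GV, and 32.03 and 26.1 against 9.72 and 7.57 FPKM at MII. Its GV ratio was at the limit of the rule, and its growing ratio was 0.467. Ssr3 (chr3:65183577-65196545, minus strand) encodes the gamma subunit of the translocon-associated protein (TRAP) complex of the endoplasmic reticulum. Its values were 72.3 and 65.5 FPKM in WT and 25.7 and 20.2 in null growing oocytes, 51.3 and 34.02 against 7.503 and 8.67 FPKM at GV, and 17.9 and 17.7 against 5.09 and 6.55 FPKM at MII. Here the null libraries were already low in growing oocytes and lay lower still, relative to WT, at GV. Mob1a (chr6:83276010-83293770, plus strand), a coactivator of the LATS and NDR kinases, stood at 28.4 and 26.2 FPKM in WT and 11.7 and 11.1 in null growing oocytes, 23.4 and 16.3 against 1.33 and 1.79 FPKM at GV, and 5.14 and 6.31 against 0.918 and 0.515 FPKM at MII. Its GV ratio of 0.0788 was the second lowest with the floor, and without it Pcp4l1 (0.0565) lay lower. The other transcripts of the group were 0610037P05Rik, now Cep20, of the centrosome (GV ratio 0.199), Atg14 of the autophagy PI3-kinase (0.323), the endosomal adaptor Appl1 (0.322), the G protein subunit Gnai1 (0.323), Fndc3b (0.245) and the bicarbonate cotransporter Slc4a7 (0.259). Exons of 0610037P05Rik overlap Gm15868 on the other strand.

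The last 3 transcripts fit none of these roles. Khdc1c (chr1:21358412-21360926, plus strand), a KH-domain gene of a cluster expressed in oocytes, had the lowest GV ratio of all, 0.04099. It stood at 41.4 and 38.7 FPKM in WT and 20.5 and 14.4 in null growing oocytes, 30.4 and 18.4 against 0.507 and 1.08 FPKM at GV, and 7.63 and 6.06 against 0.835 and 1.18 FPKM at MII. The null GV mean was under the floor, so that the ratio is an upper limit, and the null MII libraries lay in the same range. Pcp4l1 (chr1:173103393-173126399, minus strand), a small protein related to the calmodulin regulator PCP4, gave 4.54 and 3.71 FPKM in WT and 3.87 and 3.88 in null growing oocytes, 6.94 and 7.601 against 0.203 and 0.618 FPKM at GV, and 3.002 and 3.01 against 0.538 and 0.296 FPKM at MII. The growing libraries overlapped, and at GV the null values were under the floor. Wdr37, a WD-repeat protein, had ratios of 0.466 in growing, 0.162 in GV and 0.231 in MII oocytes.

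The sequences of the 55 transcripts were not used by the rule, and they differed from those of other genes in length and base composition. Each of the 55 was found by symbol among the coding transcripts annotated on mm9 (GENCODE M1). Their annotated 3′ UTRs had a median length of 1424 bases (quartiles 916 and 2390.5), against 832 bases (326 and 1670) for 3374 of the 3570 other genes that could pass, and 1142 bases for 21 of the 23 genes low at all 3 stages. The coding sequence was of similar length (medians 1266 and 1233 bases). The GC content of the 3′ UTR had a median of 36.6% against 41.0%, and that of the whole transcript 42.9% against 47.8%.

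Long, AT-rich 3′ UTRs hold more AT-rich motifs. Each motif is given as the share of 3′ UTRs with a match on the transcript strand and as matches per kilobase. The rate per kilobase allows for length, and neither measure allows for base composition. The translational control sequence was found in 36 of 55 3′ UTRs (65.5%) against 37.1% of the 3374 others, at 0.668 against 0.510 per kilobase. A cytoplasmic polyadenylation element, TTTTAT or TTTTAAT, was in 50 (90.9%) against 67.2%, at 2.28 against 1.71 per kilobase, and such a match can overlap one of the translational control sequence. The Pumilio element TGTANATA was in 28 (50.9%) against 25.01%, at 0.387 against 0.294 per kilobase. The AU-rich pentamer ATTTA was in 50 (90.9%) against 70.5%, at 3.01 against 2.16 per kilobase, and the nonamer TTATTTATT, which contains it, was in 11 (20%) against 6.25%. The polyadenylation signal AATAAA was in 51 (92.7%) against 84.9%, at 1.16 against 1.44 per kilobase.

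Among 3′ UTRs over 2000 bases, 16 of 18 of these transcripts and 75.6% of 618 others held a translational control sequence, and 14 of 18 and 50.5% a Pumilio element. Among those over 1000 and up to 2000 bases, the shares were 14 of 22 and 49.8%, and 10 of 22 and 31.7%. For the translational control sequence the gap between the sets was smaller within each of these classes than over all 3′ UTRs. For the Pumilio element it was smaller in the shorter of these classes and not in the longer one. For the cytoplasmic polyadenylation element the shares were 18 of 18 and 96.1% in the longer class and 20 of 22 and 84.2% in the shorter one, and for ATTTA 18 of 18 and 99.4%, and 22 of 22 and 91.2%, so that most 3′ UTRs of these lengths held them in either set. Up to 500 bases the polyadenylation element was in 4 of 6 and 39.1%, and ATTTA in 2 of 6 and 39.1%. Over 500 and up to 1000 bases they were in 8 of 9 and 68.2%, and in 8 of 9 and 72.4%. In these 2 classes the translational control sequence was in 2 of 6 and 11.5%, and in 4 of 9 and 31.2%. The Pumilio element was in 1 of 6 and 10.2%, and in 3 of 9 and 19.7%. Of the 21 genes low at all 3 stages with a 3′ UTR, 10 (47.6%) held a translational control sequence, 2 (9.52%) a Pumilio element, 20 (95.2%) a cytoplasmic polyadenylation element, 17 (80.95%) ATTTA, 4 (19.0%) the nonamer and 19 (90.5%) AATAAA. A match is a string of letters in the annotated 3′ UTR. It does not show that a protein binds there or that oocytes use that end.

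**Figure D4:**
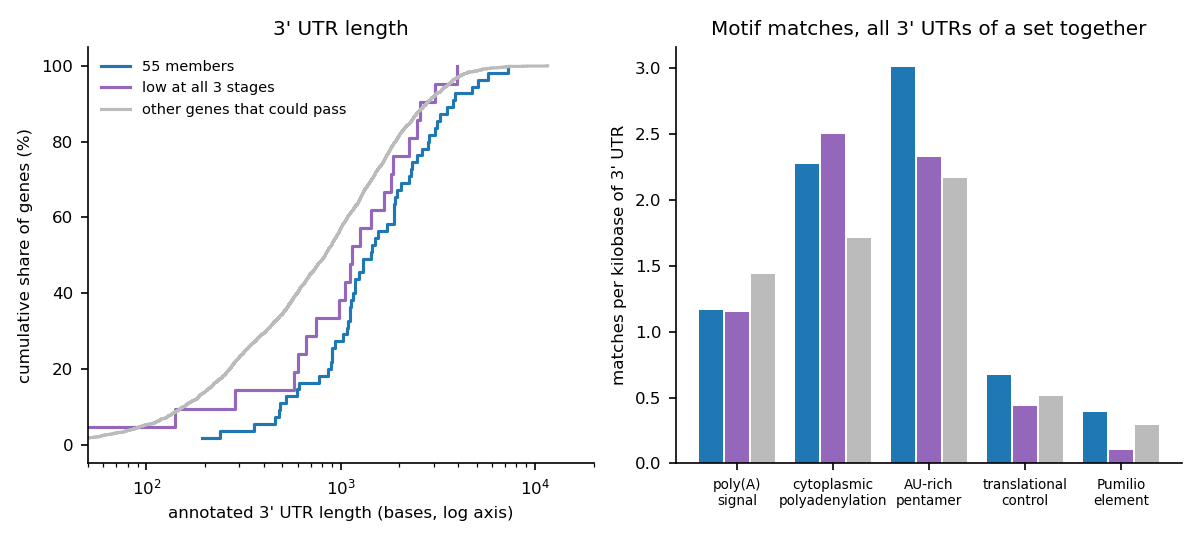
Left, cumulative share of genes by annotated 3′ UTR length (bases, log axis) for the 55 transcripts, for the genes low at every stage by the 3-fold limit and for the other genes that could pass the rule; the curve of the 55 lies to the right, with a median of 1424 against 832 bases. Right, matches per kilobase of 3′ UTR, summed over each set, for 5 motifs: the 55 exceed the others that could pass in 4 of the 5 and lie below them for the poly(A) signal. The genes low at every stage exceed the 55 for the cytoplasmic polyadenylation element (2.50 against 2.28 per kilobase). They lie below the 55 for the other motifs, for the poly(A) signal only just (1.15 against 1.16).

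The complexes and pathways of the 55 were followed through genes that the rule did not choose. For 19 lists of partners, 196 genes besides the 55 reached 1 FPKM, and limma was fitted to log2(FPKM + 1) over all 11502 genes and all 12 libraries, with p-values adjusted by Benjamini-Hochberg. At GV, 97 of the 196 were lower in null oocytes and 2 higher, against 40.6% and 2.83% of all genes tested, and the median log2 difference was -0.43 against -0.38 for all genes. At MII, 27 were lower and 51 higher, against 10.3% and 21.5% of all genes, with medians of 0.03 and 0.06. In growing oocytes 36 were lower and 15 higher, against 24.4% and 10.6%, with medians of -0.14 and -0.16. Among the genes named below for GV, Nxt1 (-1.85 ± 0.17 (SE)), Pdss2 (-1.36 ± 0.14 (SE)) and Hnrnpk (-1.08 ± 0.24 (SE)) differed by at least 1 in growing oocytes too. The others named for GV differed by less there. With the ERCC factors divided out the split of the 196 was 32 lower and 12 higher at GV, 57 and 46 at MII and 15 and 22 in growing oocytes. With median scaling it was 21 and 14, 66 and 43, and 19 and 13. Leaving out the first WT GV library left 56 lower at GV, and leaving out the first null MII library left 33 higher at MII. In growing oocytes the lower count was 18 or 21 without a WT library (number 1 or 2) and 16 without null number 2, and the higher count was 7 without WT number 1 or without null number 2.

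Around Ssr3, of 8 measured genes of the TRAP complex and the translocon, 4 were higher in null oocytes at MII and none lower; at GV, 1 was lower and 1 higher. Ssr2, the beta subunit of TRAP, was at 0.537 and 0.283 FPKM in WT and 21.7 and 19.8 FPKM in null libraries at MII. The limma difference was 3.95 ± 0.17 (SE), adjusted p = 1.5e-08. Ssr4, the delta subunit, was at 0.6803 and 0.678 FPKM in WT and 27.8 and 21.8 FPKM in null libraries (3.93 ± 0.15 (SE), adjusted p = 4.5e-09). Sec61g, of the channel itself, was at 30.2 and 18.1 FPKM in WT and 385 and 295 FPKM in null libraries (3.79 ± 0.25 (SE), adjusted p = 3.9e-07). All 3 were far lower in WT MII than in WT GV oocytes and much less so in null ones.

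Of 18 measured subunits of polymerases I and II besides Polr2h and Twistnb, 6 were lower at GV and 11 were higher at MII. Polr2e was at 2.45 and 1.98 FPKM in WT and 50.3 and 43.9 FPKM in null libraries at MII (3.90 ± 0.16 (SE), adjusted p = 9.5e-09). Polr2j was at 35.8 and 32.8 FPKM in WT and 565 and 451 FPKM in null libraries (3.84 ± 0.17 (SE), adjusted p = 1.7e-08), and Polr1d at 10.7 and 8.71 FPKM in WT and 129.5 and 99.6 FPKM in null libraries (3.42 ± 0.18 (SE), adjusted p = 5.8e-08).

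Among 22 other SR and hnRNP splicing factors, 15 were lower at GV and 11 at MII, with 1 higher at MII. Hnrnpk was at 196 and 129 FPKM in WT and 37.1 and 60.02 FPKM in null libraries at GV (-1.73 ± 0.24 (SE), adjusted p = 0.0003), Hnrnpa0 at 4.41 and 3.36 FPKM in WT and 0.5995 and 0.514 FPKM in null libraries (-1.64 ± 0.16 (SE), adjusted p = 3.4e-05), and Srsf5 at 15.9 and 13.3 FPKM in WT and 5.39 and 3.92 FPKM in null libraries at MII (-1.47 ± 0.21 (SE), adjusted p = 0.00024). In mRNA export, 3 of 9 were lower at GV, and 3 lower and 2 higher at MII. Nxt1 and Nxf1, the export receptor pair, were at 176 and 157 FPKM in WT and 35.7 and 35.6 FPKM in null libraries (-2.19 ± 0.17 (SE), adjusted p = 1.3e-05) and at 42.6 and 35.3 FPKM in WT and 9.87 and 11.3 FPKM in null libraries (-1.78 ± 0.18 (SE), adjusted p = 5.1e-05) at GV. Alyref, the adaptor that brings them to mRNA, went the other way at MII, with 0.495 and 0.243 FPKM in WT and 3.98 and 3.41 FPKM in null libraries (1.78 ± 0.17 (SE), adjusted p = 1.2e-05). Of 6 readers of N6-methyladenosine and cap methyltransferases, 5 were lower at GV, with Ythdc2 at -1.31 ± 0.14 (SE), adjusted p = 6e-05. Of 11 decapping genes 7 were lower at GV, with Pnrc2 at -1.13 ± 0.24 (SE), adjusted p = 0.00361. Both rest on low values. At GV, Ythdc2 was at 3.16 and 2.87 FPKM in WT and 0.578 and 0.661 FPKM in null libraries. Pnrc2 was at 2.55 and 1.17 FPKM in WT and 0.354 and 0.187 FPKM in null libraries.

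**Figure D5:**
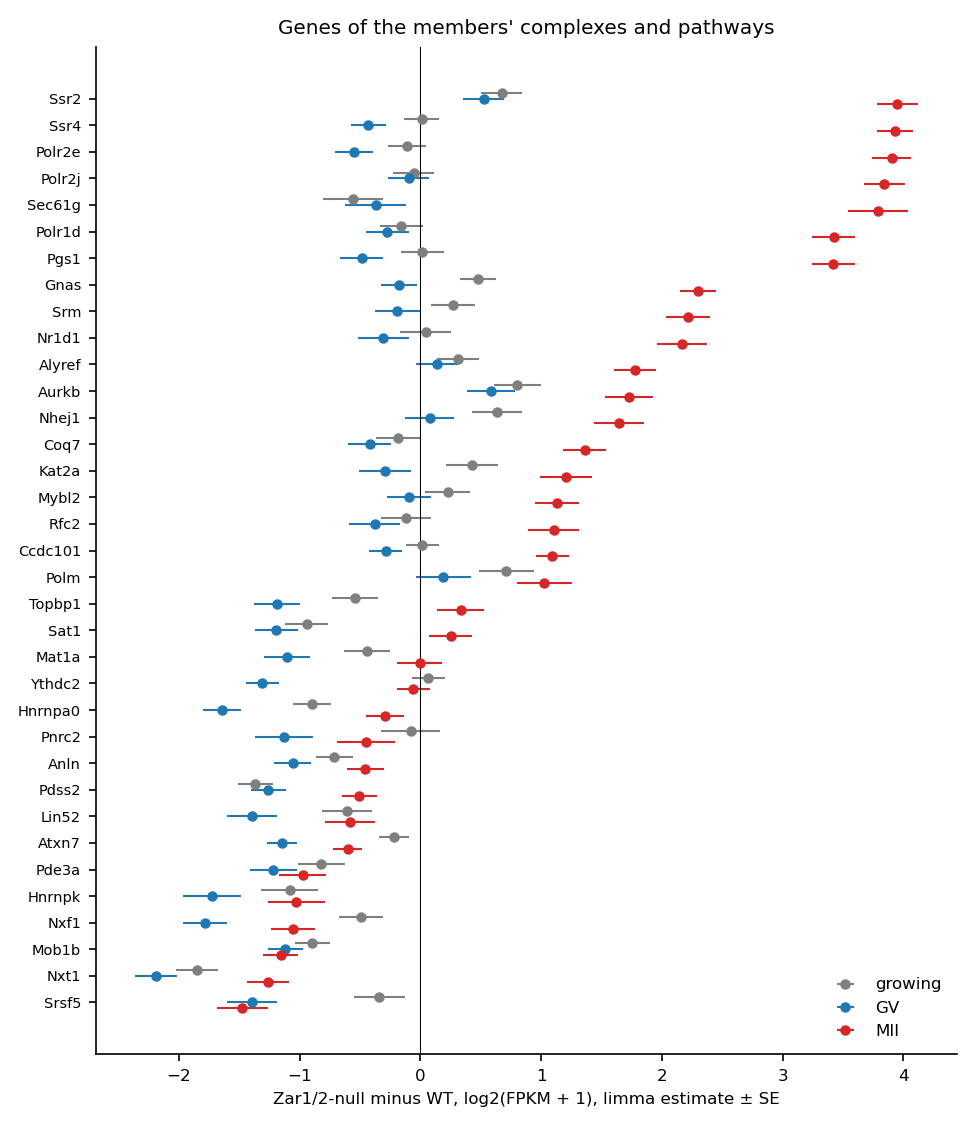
limma estimate of the Zar1/2-null minus WT difference in log2(FPKM + 1) with its SE (bars) for 35 genes of the partner lists in growing (grey), GV (blue) and MII (red) oocytes, ordered by the MII value. Ssr2, Ssr4, Polr2e, Polr2j and Sec61g lie near 4 at MII and between -0.56 and 0.68 before, and Nxt1, Mob1b, Hnrnpk and Pde3a lie below 0 at all 3 stages.

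In DNA repair, 7 of 12 clamp and ATR checkpoint genes were lower at GV and 3 higher at MII. Topbp1, the activator of ATR, was at -1.19 ± 0.19 (SE), adjusted p = 0.00071 at GV, a call lost with median scaling (adjusted p = 0.0511). Rfc2, a clamp loader subunit, was at 1.11 ± 0.21 (SE), adjusted p = 0.00182 at MII. Of 8 end-joining genes, 2 were lower at GV and 3 higher at MII, with Nhej1 at 1.64 ± 0.21 (SE), adjusted p = 8.6e-05 and Polm at 1.03 ± 0.23 (SE), adjusted p = 0.00476, the latter lost without the first WT MII library (adjusted p = 0.0598). Of 11 cohesin genes, 8 were lower at GV, and 4 lower and 1 higher at MII, and none of those whose libraries did not overlap differed by 1 or more on the log2 scale. In the MuvB and DREAM list 4 of 9 were lower at GV and 4 higher at MII. Lin52, a partner of LIN54, was at -1.40 ± 0.21 (SE), adjusted p = 0.00045 at GV and Mybl2 at 1.13 ± 0.18 (SE), adjusted p = 0.00059 at MII. In SAGA, 7 of 13 were lower at GV, and 1 was lower and 2 higher at MII, with Atxn7 at -1.15 ± 0.12 (SE), adjusted p = 6.4e-05, Kat2a at 1.205 ± 0.22 (SE), adjusted p = 0.00121 and Ccdc101 at 1.09 ± 0.14 (SE), adjusted p = 8.7e-05.

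Around Mat2a and Amd1, 7 of 15 enzymes of methionine, S-adenosylmethionine and polyamines were lower at GV and 2 higher at MII. Srm, spermidine synthase, was at 0.584 and 1.02 FPKM in WT and 7.36 and 7.24 FPKM in null libraries at MII (2.21 ± 0.18 (SE), adjusted p = 2.9e-06). Sat1, which acetylates polyamines for breakdown, was at -1.19 ± 0.18 (SE), adjusted p = 0.00047 at GV, and Mat1a at -1.10 ± 0.19 (SE), adjusted p = 0.00101. Of 14 genes for cardiolipin and coenzyme Q, 4 were lower at GV, and 1 lower and 6 higher at MII. Pgs1, which acts before Crls1, was at 3.59 and 3.32 FPKM in WT and 44.8 and 48.5 FPKM in null libraries at MII (3.42 ± 0.18 (SE), adjusted p = 6.8e-08). Coq7 was at 1.36 ± 0.18 (SE), adjusted p = 0.00014 at MII and Pdss2 at -1.26 ± 0.14 (SE), adjusted p = 9.3e-05 at GV.

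In the cytokinesis list around Ect2, 4 of 9 were lower and 1 higher at GV, and 2 lower and 1 higher at MII. Aurkb was at 0.824 and 1.33 FPKM in WT and 6.17 and 5.52 FPKM in null libraries at MII (1.73 ± 0.20 (SE), adjusted p = 4.2e-05). Anln was at -1.06 ± 0.15 (SE), adjusted p = 0.0004 at GV, a call lost with median scaling (adjusted p = 0.0543). Of 8 Hippo and MOB genes 6 were lower at GV, and 1 lower and 2 higher at MII. Mob1b, the paralog of Mob1a, was at 2.73 and 2.32 FPKM in WT and 0.677 and 0.4904 FPKM in null libraries at MII (-1.16 ± 0.14 (SE), adjusted p = 8.6e-05). Of 6 autophagy PI3-kinase genes 5 were lower at GV, and 1 lower and 1 higher at MII. Around Gnai1, 3 of 6 were lower at GV, and 1 lower and 1 higher at MII: Pde3a, the phosphodiesterase that lowers oocyte cAMP, was at -1.22 ± 0.20 (SE), adjusted p = 0.00072 at GV, and Gnas, the stimulatory subunit, at 2.30 ± 0.15 (SE), adjusted p = 3.7e-07 at MII. Of 9 clock genes 3 were lower at GV and 3 higher at MII, with Nr1d1 at 2.17 ± 0.21 (SE), adjusted p = 1e-05. Of the 2 other Khdc1 genes, none was called at GV and 1 was higher at MII.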

How the data were processed

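RNA-seq was done on pools of 10 oocytes, 2 libraries in each of 6 groups, by Smart-seq2 with ERCC spike-in RNA. Per the labels and the study's methods, reads were mapped to mm9 with TopHat2 2.1.1 and FPKM were computed with Cufflinks 2.2.1. The authors deposited FPKM scaled to ERCC, with WT growing oocytes as the reference. The factor recovered from the values was 1 in both WT growing libraries. From this it was inferred that the WT growing library of each replicate number was the reference. Counts were not used here, so no count test was run. Of the low values, 78.3% of 32589 lay within 0.03 of a whole number of fragments, which gave the relative depths and the approximate fragments behind a value; values are limited by counting error and by 2 libraries a group.

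Genes with at least 1 FPKM in 1 library were kept. The rule was read on group means. Other genes were tested with limma 3.58.1 (R 4.3.3) on log2(FPKM + 1) in 1 fit of the 6 groups, with an adjusted p of 0.05 by Benjamini-Hochberg, and a fold on this scale understates the change of low genes. pandas 2.3.3 and numpy 2.4.6 were used with Python 3.11.15. Library values are given for transcripts with a WT GV mean of at least 40 FPKM, a ratio below 0.15 at GV or MII, or the highest WT GV level of their role. Up to 3 genes are named per partner list, with non-overlapping libraries, a log2 difference of at least 1 in size and a limma call at GV or MII. Sequences came from GENCODE M1 on mm9, 1 coding transcript a gene. In a simulated table of 11502 genes with 200 lowered 6-fold at GV and MII, the rule took 100% of these and 0 unchanged genes, and limma at GV called 100% and 24 unchanged genes. The lowered genes were well above the floor in WT, the fall was beyond the limit of the rule and the spread was small. The settings thus fixed this recovery, which checks the computation and gives no error rate for the 55. The values of 1 of the 55 transcripts and 1 sequence are not reported here. The transcripts and lists were chosen with earlier results of these data known. Alternatives were other floors, thresholds, pseudocounts, filters, scalings, a replicate block and each library left out.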

Additional observations from a re-analysis of the deposited data

Results flagged for a closer look

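The named genes of the partner lists were compared between stages by the interaction term of limma, and those with a Benjamini-Hochberg adjusted p below 0.05 are given here with the log2 difference between the effects of the null genotype. The effect at MII lay above that at GV by the largest amounts in Polr2e (4.45), Ssr4 (4.36), Sec61g (4.16), Polr2j (3.94), Pgs1 (3.91), Polr1d (3.70), Ssr2 (3.43), Gnas (2.48), Nr1d1 (2.47) and Srm (2.41). It lay above it by smaller amounts in Coq7 (1.78), Alyref (1.64), Nhej1 (1.57), Topbp1 (1.52), Kat2a (1.499), Rfc2 (1.48), Sat1 (1.44), Ccdc101 (1.38), Hnrnpa0 (1.35), Ythdc2 (1.25), Mybl2 (1.23), Aurkb (1.14) and Mat1a (1.10), and least in Nxt1 (0.93), Pdss2 (0.75), Nxf1 (0.73) and Atxn7 (0.54). The same term passed in the upward direction in 33.9% of all genes tested. The genes above were named for a call and a log2 difference of at least 1 at GV or MII, values that enter this term. Nothing is thus read from how many of them passed.

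The effect at GV lay below that in growing oocytes in Nxf1 (-1.29), Hnrnpa0 (-0.75), Srsf5 (-1.05), Ythdc2 (-1.37) and Atxn7 (-0.93). The same term passed in this direction in 11.3% of all genes tested, and for the same reason nothing is read from how many passed here.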

How the results depend on the processing

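The number of transcripts that met the rule was 153 with a floor of 0.1 FPKM, 192 with a 2-fold and 9 with a 5-fold threshold, 27 with a 3-fold gap between every pair of libraries, and 42 to 63 on 1 replicate number. Without ERCC scaling, the median null to WT ratios of the 55 were 0.662 in growing, 0.338 in GV and 0.189 in MII oocytes, and with median scaling 0.608, 0.374 and 0.182. On 1 replicate number they were 0.542 to 0.542, 0.203 to 0.255 and 0.228 to 0.254. The WT MII to GV median became 1.47 without ERCC scaling and 2.62 with median scaling (0.416 to 0.473 on 1 replicate number), the null one 0.928 and 1.43 (0.431 to 0.497), and the WT GV to growing median 1.00 and 0.973 (0.708 to 0.809). The null GV to growing median, recomputed by a choice made after seeing the data, became 0.508 and 0.593 (0.302 to 0.326).

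Of the partner genes, limma called lower in growing oocytes 15 without ERCC scaling and 19 with median scaling, and 16 to 40 with 1 library left out. It called higher 8 with a mean of at least 5 FPKM, and 7 to 18 with 1 library left out. At GV, 32, 21 and 59 were lower without ERCC scaling, with median scaling and in the 4 GV libraries alone, and 56 to 94 with 1 library left out. At GV, 12 were higher without ERCC scaling, 14 with median scaling, 1 with no filter, and 0 by limma with a pseudocount of 0.1 or in the 4 GV libraries alone, where 2 passed an unadjusted p of 0.05 in each, and 0 to 2 with 1 library left out. At MII, 57 and 66 were lower without ERCC scaling and with median scaling, and 33 to 51 were higher with 1 library left out. With 1 library left out, the lone library of its group is assumed to vary like the other groups. At GV, the differences of Polr2e (0.036) and Pgs1 (0.095) turned positive with median scaling, as did that of Ssr4 (0.14), which was 0.011 without ERCC scaling. The median log2 difference over all genes was -0.38 at GV as deposited, -0.03 without ERCC scaling and 0.07 with median scaling, so counts of lower and higher calls rest on the scaling.

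The replicate numbers do not show paired samples: replicate differences of WT and null correlated across 5966 genes at 0.188 in growing, -0.110 in GV and 0.0849 in MII oocytes. With the replicate block, 38, 100 and 29 partner genes were lower in growing, GV and MII oocytes and 16, 2 and 52 higher.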

Other observations

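Rnf2, a ubiquitin ligase of the Polycomb complex, met the conditions on the ratios with 0.530 in growing, 0.218 in GV and 0.172 in MII oocytes and was left out by its symbol. Krt8 stood at 72.8 and 88.0 FPKM in null growing libraries and at 3.84 and 3.59 FPKM in WT ones.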
